A study of Mus musculus with 6 samples.

Results

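Mouse embryonic stem (ES) cells that turn to a state like the 2-cell embryo switch on a known set of genes, and 10 of these were examined, namely Zfp352, Tmem92, Sp110, Arg2, Ddit4l, Tcstv1, Tcstv3, Gm20767, Trim43a and Trim43b. They were chosen by name, outside the Zscan4, Usp17l, Pramel and Obox families, and all 10 were found by Entrez ID among the 24467 genes of the table. RNA was sequenced from 2 clones of ES cells that had lost both Hp1α (Cbx5) and Hp1β (Cbx1), called double knockout (DKO) clone 1 and clone 2, and from 1 control clone with floxed alleles (F/F), which the labels class as wild type. Each clone had 2 libraries, so 4 DKO libraries were set against 2 control libraries. All cells were kept without treatment in serum replacement medium with LIF and a pair of inhibitors, 3 µM CHIR99021 and 0.8 µM PD184352. As 1 clone stood for the control genotype, effects of genotype and of clone cannot be told apart. Nothing in the labels says if the paired libraries of each clone were separate cultures, so the p-values measure the spread between libraries, which may be technical. The pooled test of DKO against control treats the 4 DKO libraries as separate replicates. Its spread therefore also holds the difference between the 2 DKO clones.

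ES cultures hold a small and changing fraction of cells that switch on genes of the 2-cell embryo, the stage at which the mouse genome is first transcribed at scale. Many of these genes are transcribed from the long terminal repeats of MERVL and related retroelements and are activated by the transcription factor DUX. HP1 proteins bind a methylated lysine of the histone H3 tail that is found on silent retroelements. In bulk RNA, fewer cells in that state and less RNA per such cell cannot be told apart.

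The libraries held 24628872 to 34641560 counted reads, and 14771 genes passed the filter on low counts, all 10 genes examined here among them. Cbx5 averaged 198 ± 6.58 CPM (reads scaled to TMM library size; SD, n = 4) in DKO cells and 811 ± 2.96 CPM (SD, n = 2) in control cells. Cbx1 averaged 45.7 ± 2.44 CPM (SD, n = 4) in DKO cells and 225 ± 2.88 CPM (SD, n = 2) in control cells. By a chi-square statistic per gene, the 2 control libraries differed more from each other (44.4) than those of clone 1 (11.8) or clone 2 (12.5). ES cell identity was checked with 12 markers, whose summed level was 5473 to 5804 CPM in DKO libraries and 5432 and 5720 CPM in control libraries. Of the 12, Nanog rose (log2 change 0.33, adjusted p = 0.0281, edgeR) and Tdgf1, an EGF-CFC coreceptor, fell (-0.28, adjusted p = 0.0415, edgeR). Nanog lies on chromosome 6, whose genes had a median shift of 0.44 in clone 1 and 0.51 in clone 2. With chromosomes centred, and without control replicate 1 or control replicate 2, edgeR called 0 of the 12 lower and 0 higher, with 1 lower and 1 to 3 higher at unadjusted p under 0.05.

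The start regions of 2 of the genes shared a repeated word that was not used to choose them. RefSeq windows of 300 bases, 250 before to 50 after the annotated start on GRCm38.p6, were at hand for 4 of the 10 genes (Zfp352, Sp110, Ddit4l and Trim43a). Zfp352 lies on chr4:90218570-90218869 (plus strand) and Sp110, at one of its annotated starts, on chr1:85603842-85604141 (minus strand). These windows and that of Gm20765, on chr10:104185283-104185582 (plus strand), are shown 5′ to 3′ because they share the word CACACCTTTAATC, which is in capitals wherever it occurs on either strand.
Zfp352: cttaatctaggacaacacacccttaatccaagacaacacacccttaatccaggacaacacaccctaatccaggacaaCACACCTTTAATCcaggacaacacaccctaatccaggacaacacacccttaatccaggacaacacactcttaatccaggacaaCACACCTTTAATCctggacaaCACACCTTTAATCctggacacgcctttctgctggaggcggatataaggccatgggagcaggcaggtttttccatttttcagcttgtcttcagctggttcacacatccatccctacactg
Sp110: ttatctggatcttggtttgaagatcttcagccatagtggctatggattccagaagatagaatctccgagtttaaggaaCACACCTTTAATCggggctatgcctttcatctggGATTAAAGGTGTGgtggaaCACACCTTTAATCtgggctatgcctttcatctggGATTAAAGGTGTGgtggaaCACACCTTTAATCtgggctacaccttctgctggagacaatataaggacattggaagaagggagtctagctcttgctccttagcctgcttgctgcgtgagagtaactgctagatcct
Gm20765: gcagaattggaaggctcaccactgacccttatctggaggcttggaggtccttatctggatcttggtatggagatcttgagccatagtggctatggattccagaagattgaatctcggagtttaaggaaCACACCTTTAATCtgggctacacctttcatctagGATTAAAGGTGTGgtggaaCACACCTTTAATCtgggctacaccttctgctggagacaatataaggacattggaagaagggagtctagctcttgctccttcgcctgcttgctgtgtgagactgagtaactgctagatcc

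The word occurred 3 times in the Zfp352 window and 5 times in the Sp110 window, and it was the longest word, at 13 letters, with that many copies. It was picked after these windows had been read. Of 32851 RefSeq windows of this length, 50 (0.152%) held it at least once and 17 (0.0517%) held it 3 times or more. The windows of Ddit4l and Trim43a held none. The second annotated start of Sp110 held none either.

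The 17 windows with 3 or more copies belonged to 16 genes, 6 of which were in the count table. Gm20765 (chromosome 10, 104185533 to 104188000) had 24.3 and 23.9 CPM in clone 1 and 19.7 and 19.6 CPM in clone 2, against 54.4 and 60.03 CPM in control cells. Its deposited width of 8959 bases exceeds this RefSeq span, so the counted gene model was another one. Its log2 change in DKO against control was -1.39 (SE 0.109, adjusted p = 0.000269, edgeR quasi-likelihood test with Benjamini-Hochberg adjustment over all tested genes). Gm21293, on the same chromosome (104142987 to 104145427) and with a window identical to that of Gm20765 in all 300 bases, averaged 2.21 ± 0.531 CPM (SD, n = 4) in DKO cells and 5.20 ± 0.441 CPM (SD, n = 2) in control cells, a log2 change of -1.23 (adjusted p = 0.00747, edgeR). Esp24 had no read in the 4 DKO libraries (a count of 0 allows up to 3 reads each), against 7 and 6 reads in the control libraries, and Gm12724 had 0 to 4 reads in DKO libraries, against 7 and 3 in control libraries. Esp24 and Gm12724 were too low to be tested. In 5 of the 6 genes every DKO library lay below both control libraries, with Gm12724 the exception. Zfp352 and Sp110, whose windows gave the word, are among these 5. Of the 6 genes 4 were tested, and all 4 showed that order, as did 16.9% of all genes tested. With at least 1 copy, 15 genes were tested, and Zfp352 and Sp110 are again among them. So are Tdpoz1, Eif4a3l1 and Pramel17, from a list of other 2-cell transcripts made with results of these data known. Tdpoz8 and Tdpoz9, relatives of Tdpoz1, are among the 15 too (log2 change -0.63 and -1.46, not called). Of the 15, 13 had a log2 change below 0, with a median of -0.67 against 0.00038 over all tested genes. Of the 15 genes 3 were called lower, against 3.62% of all tested genes. Sgk1, a serum-responsive kinase, was called higher, as were 5.06% of all tested genes. Since the word was chosen in these data, no test is attached to it, and reads may be shared between Gm20765 and Gm21293.

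**Figure D1:**
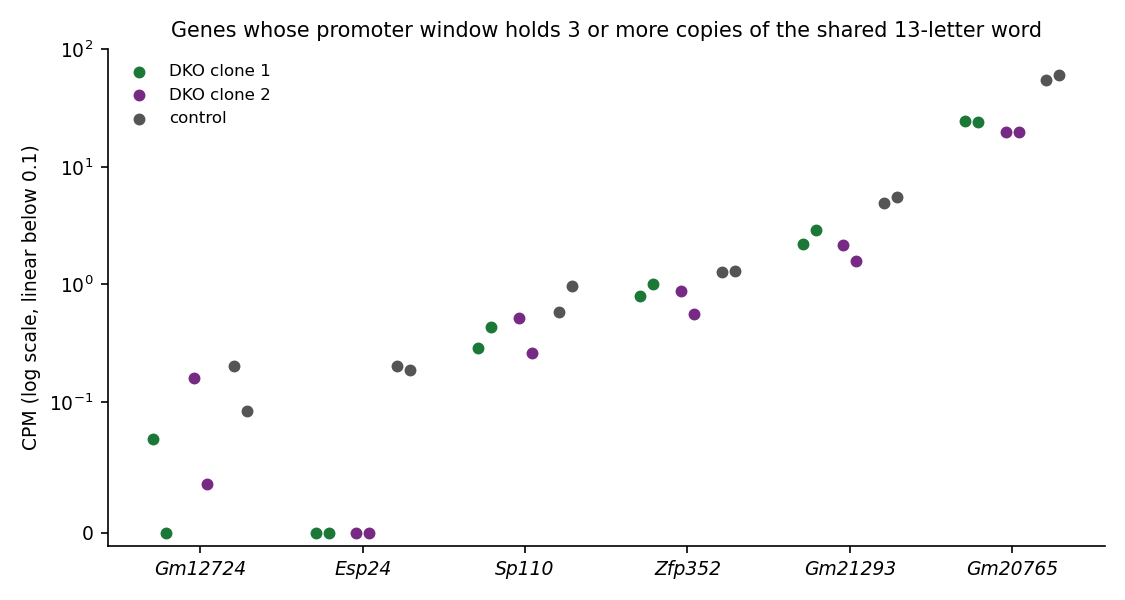
CPM (log axis, linear below 0.1) of the 6 genes whose promoter window held 3 or more copies of the shared word, with 1 point per library for DKO clone 1, DKO clone 2 and control. In every gene but Gm12724 the 4 DKO points lie below both control points, from Esp24 at 0 in DKO libraries to Gm20765 at 19.6 to 24.3 CPM in DKO libraries and 54.4 and 60.03 CPM in control libraries. Zfp352 and Sp110, whose windows gave the word, are among the 6.

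When the 4 DKO libraries were set against control, 3 of the 10 genes fell, Tcstv1, Gm20767 and Tmem92, and 7 did not pass. Of all tested genes 8.69% were called, 3.62% lower and 5.06% higher. None of the 10 rose in edgeR (0 at unadjusted p under 0.05, 0 in DESeq2 and 0 in limma-voom). The median log2 change of the 10 genes was -0.88. The 10 genes together made up 23.8 to 33.0 CPM in DKO libraries, against 47.2 and 44.3 CPM in control libraries. In 7 of the 10 genes all 4 DKO libraries lay below both control libraries, as in 16.9% of all tested genes. Ddit4l, Trim43a and Trim43b were the exceptions.

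**Figure D2:**
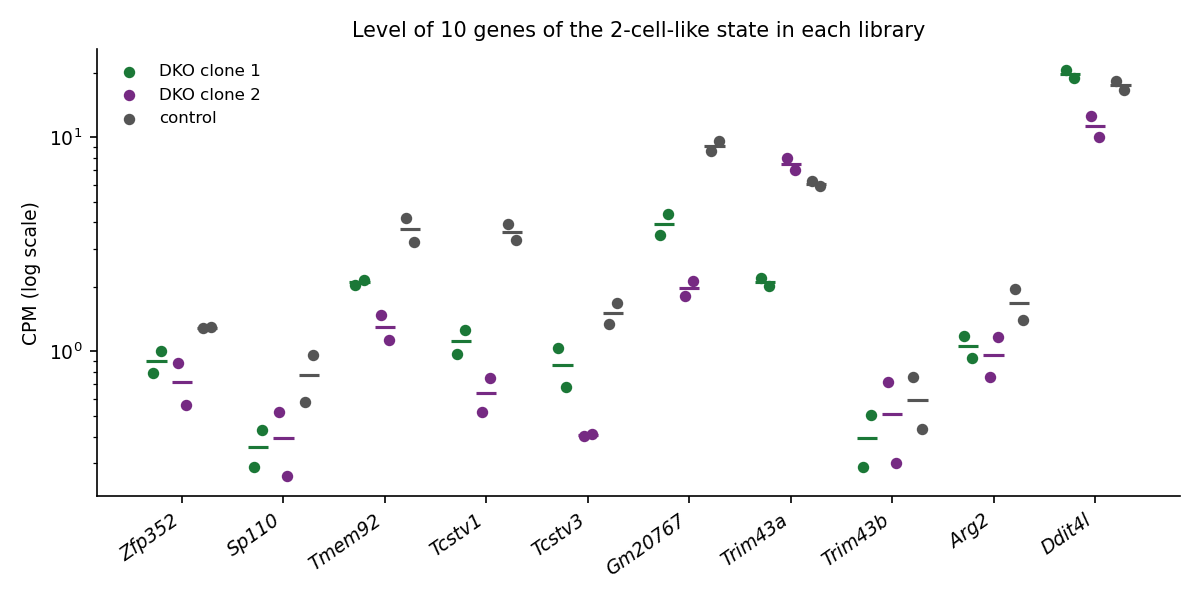
CPM (log axis) of the 10 genes in each of the 6 libraries, with bars at the mean of the 2 libraries of a clone (DKO clone 1, DKO clone 2, control). For 7 genes every point of both clones lies below both control points. Trim43a is low only in the points of clone 1 (2.19 and 2.01 CPM), and Ddit4l is low only in those of clone 2 (12.5 and 10.01 CPM).

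Tcstv1 and Tcstv3 code for small proteins of the 2-cell stage variable group, and Tcstv1 has been linked to telomere lengthening in ES cells. Tcstv1 (Entrez 54382, GRCm38 chromosome 13, 119893387 to 119894785) had 0.969 and 1.26 CPM in clone 1 and 0.522 and 0.750 CPM in clone 2, against 3.93 and 3.31 CPM in control cells. All 4 DKO libraries were far below both control libraries, and the log2 change was -2.04 (SE 0.294, adjusted p = 0.00246, edgeR). Gm20767 (Entrez 639910, chromosome 13, 120140246 to 120155335) had 3.48 and 4.38 CPM in clone 1 and 1.81 and 2.14 CPM in clone 2, against 8.65 and 9.57 CPM in control cells. Its log2 change was -1.62 (SE 0.28, adjusted p = 0.00579, edgeR). Tcstv3 (Entrez 236219, chromosome 13, 120316862 to 120318261) had 1.04 and 0.683 CPM in clone 1 and 0.401 and 0.412 CPM in clone 2, against 1.34 and 1.67 CPM in control cells. The groups did not overlap, but the pooled change of -1.23 (SE 0.389) did not pass (adjusted p = 0.0821, edgeR). In clone 2 alone Tcstv3 was called lower, at a log2 change of -1.87 (adjusted p = 0.0079, edgeR), and in clone 1 its change of -0.80 was not called (adjusted p = 0.166, edgeR). The call in clone 2 ended without clone 2 replicate 1 (adjusted p = 0.0564), clone 2 replicate 2 (0.0582) or control replicate 2 (0.0618).

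The transcripts of these 3 genes are close copies, so the split of reads between them is uncertain. Over the aligned parts of their longest GENCODE M21 transcripts, Tcstv1 was 94.4% identical to Tcstv3 and 94.4% to Gm20767, and Tcstv3 was 92.8% identical to Gm20767. Of all 50-base words in the transcripts of Gm20767, 70.2% also occurred in a transcript of another gene, most often Gm21761. That share was 31.4% for Tcstv3 and 15.0% for Tcstv1. With the 3 genes counted as 1, their level was 5.49 and 6.32 CPM in clone 1 and 2.73 and 3.30 CPM in clone 2, against 13.9 and 14.6 CPM in control cells. The summed log2 change was -1.67 (SE 0.264, adjusted p = 0.00373, edgeR).

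The lower level extended to most of the chromosome 13 stretch in which these genes lie. Within 200 kb of the 3 genes the table held 11 genes, of which 10 were tested, 6 were called lower in DKO cells and none was called higher at adjusted p or at unadjusted p under 0.05, in edgeR. The limits of this stretch were set after the neighbours had been seen, and 3 of its genes are members. The gene not tested, Gm21188, went the other way at few reads. It had 5 to 11 reads in DKO libraries (mean 0.252 CPM), against 5 and 4 in control libraries (0.135 CPM). Gm21761 averaged 1.51 CPM in clone 1 and 1.18 CPM in clone 2, against 4.53 CPM in control cells, with a log2 change of -1.74 in DKO cells (adjusted p = 0.00164, edgeR). As 838 of the 1378 50-base words of Gm20767 also occur in Gm21761, reads may be shared between these 2 genes. B020031M17Rik fell by 1.35 on the log2 scale (adjusted p = 0.00404, edgeR), AF067061 by 2.11 (adjusted p = 0.0115) and BC147527 by 1.42 (adjusted p = 0.0268). At the left edge of the stretch the zinc finger gene Zfp131 had 74.4 CPM in clone 1 and 73.8 CPM in clone 2, against 77.4 CPM in control cells (log2 change -0.06, adjusted p = 0.628). The kinase gene Nim1k beside it was not called (-0.32, adjusted p = 0.544), nor was AF067063 (-1.38, adjusted p = 0.225). Over the whole of chromosome 13, with 578 tested genes, the median shift was -0.05 in clone 1 and 0.00085 in clone 2.

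**Figure D3:**
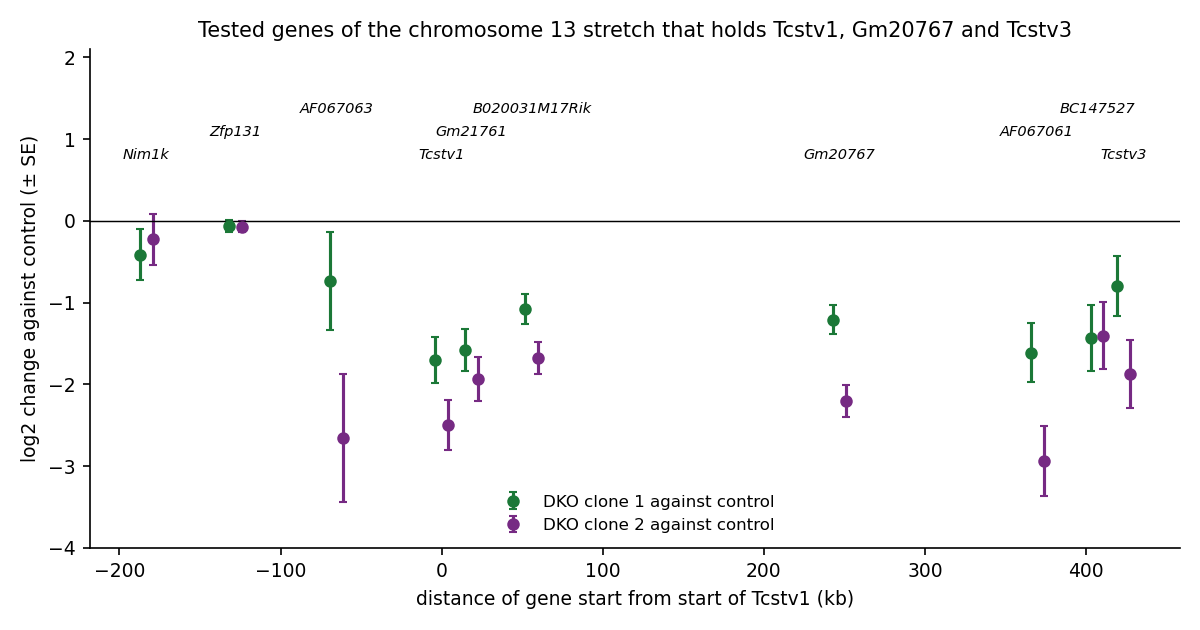
log2 change (± SE) of each clone against control for the 10 tested genes within 200 kb of Tcstv1, Gm20767 and Tcstv3, by distance of the gene start from that of Tcstv1 in kb. All 10 genes lie below 0 in both clones. Nearest to 0 are Zfp131 (-0.06 in clone 1 and -0.07 in clone 2) and Nim1k (-0.41 and -0.22) at the left. AF067061 is at -1.61 in clone 1 and -2.94 in clone 2.

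Tmem92, a gene for a membrane protein (Entrez 544806, chromosome 11, 94777217 to 94782703), had 2.05 and 2.16 CPM in clone 1 and 1.49 and 1.12 CPM in clone 2, against 4.19 and 3.22 CPM in control cells. Every DKO library lay below both control libraries, and its log2 change was -1.12 (SE 0.267, adjusted p = 0.0279, edgeR). It was called in clone 1 (-0.82, adjusted p = 0.0359) and in clone 2 (-1.51, adjusted p = 0.00144). The call in clone 1 ended without control replicate 1 (adjusted p = 0.236), clone 1 replicate 1 (0.161) or clone 1 replicate 2 (0.102), in DESeq2 (0.0924) and with chromosomes centred (0.0641). The nearest tested genes on either side, Xylt2 at 99699 bases and Col1a1 at 153521 bases, had log2 changes of -0.10 and 0.10 and were not called (adjusted p = 0.634 and 0.879, edgeR).

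The 3 calls in the pooled comparison depended on the control libraries. Without control replicate 1 none of the 10 genes passed in edgeR (5 at unadjusted p under 0.05), with adjusted p of 0.0587 for Tcstv1, 0.0687 for Gm20767 and 0.273 for Tmem92. Without control replicate 2, Tcstv1 alone passed, and the values were 0.0841 for Gm20767 and 0.105 for Tmem92. Tmem92 also stood at 0.0558 without clone 2 replicate 1 and at 0.0527 with the replicate number as a block. The log2 changes of these 3 genes stayed between -2.26 and -0.91 in all settings tried. With counts summed per clone, which leaves 1 library a clone, none of the 10 passed in edgeR (3 at unadjusted p under 0.05).

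Zfp352, a zinc finger gene of the 2-cell embryo (Entrez 236537, chromosome 4, 90218820 to 90225687), had 0.790 and 1.01 CPM in clone 1 and 0.883 and 0.562 CPM in clone 2, against 1.28 and 1.30 CPM in control cells. Its groups did not overlap, yet its log2 change of -0.67 (SE 0.312) did not pass (adjusted p = 0.23, edgeR). Sp110, an interferon-inducible nuclear body protein (Entrez 109032, chromosome 1, 85570735 to 85610850), had few reads, 7 to 13 reads in each DKO library, against 20 and 31 in the control libraries. Its level was 0.287 and 0.431 CPM in clone 1 and 0.522 and 0.262 CPM in clone 2, against 0.582 and 0.960 CPM in control cells. The groups again did not overlap, and the log2 change of -1.03 (SE 0.427) did not pass (adjusted p = 0.177, edgeR). Its annotated span overlaps that of its relative Sp140 (85587491 to 85645040), and 36.0% of its 50-base words occur in other genes, so its reads are uncertain. Sp140 itself had 0.413 and 0.454 CPM in clones 1 and 2, against 0.396 CPM in control cells. Of 9 tested interferon response genes none was called in DKO against control in edgeR (2 lower and 0 higher at unadjusted p under 0.05), while DESeq2 and limma-voom each called 1 lower.

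Arg2, the mitochondrial arginase that splits arginine into ornithine and urea (Entrez 11847, chromosome 12, 79130788 to 79156301), had 1.18 and 0.934 CPM in clone 1 and 0.763 and 1.16 CPM in clone 2, against 1.95 and 1.39 CPM in control cells. The log2 change was -0.72 (SE 0.292, adjusted p = 0.168, edgeR), so it was not called although the groups did not overlap. The end of Arg2 overlaps Vti1b, which spans 79156017 to 79172685. Vti1b averaged 65.4 CPM in clone 1 and 66.7 CPM in clone 2, against 72.5 CPM in control cells. None of the 50-base words of Arg2 occurs in a transcript of another gene in the same orientation. Words of the opposite strand were not compared, so reads shared with a gene on that strand would not be found. Oat, which converts the ornithine that arginase makes, rose to 34.5 CPM in clone 1 and 50.7 CPM in clone 2, against 25.4 CPM in control cells (log2 change 0.74, adjusted p = 0.0309, edgeR). In this edgeR fit 13 other tested relatives of the members were not called in the pooled comparison, while DESeq2 called 2 of the 14 higher. Without control replicate 1 or control replicate 2, and with the replicate number as a block, edgeR called none of the 14 higher (2 at unadjusted p under 0.05 in each).

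The clones differed from each other in 3 of the 10 genes, Trim43a, Ddit4l and Gm20767. Between clones 6.30% of all tested genes were called, 3.77% lower and 2.53% higher in clone 2. Against control, 4 of the 10 genes (Tmem92, Tcstv1, Gm20767 and Trim43a) were lower in clone 1, where 6.47% of tested genes were called lower and 8.79% higher. In clone 2 against control 5 were lower (Tmem92, Ddit4l, Tcstv1, Tcstv3 and Gm20767), where 7.08% of tested genes were called lower and 7.89% higher. Tmem92, Tcstv1 and Gm20767 were lower in both, a pattern shown by 3.18% of tested genes. Both contrasts use the same control libraries.

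Trim43a, of the TRIM family of RING-finger proteins (Entrez 547109, chromosome 9, 88580891 to 88588824), had 2.19 and 2.01 CPM in clone 1, 7.99 and 7.05 CPM in clone 2 and 6.23 and 5.89 CPM in control cells. Clone 1 lay at 34.7% of control, a log2 change of -1.53 (SE 0.181, adjusted p = 0.000118, edgeR). Clone 2 lay at 124% of control, a change of 0.31 that was not called (SE 0.159, adjusted p = 0.221, edgeR). Clone 2 against clone 1 gave 1.84 (SE 0.182, adjusted p = 0.000103, edgeR). The difference between clones stayed between 1.74 and 1.92 in every setting in which it was fitted, and was called in each of the 14. For the pooled genotypes the log2 change was -0.34 (adjusted p = 0.725, edgeR).

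Trim43b (Entrez 666747, chromosome 9, 89084624 to 89092835) had 0.287 and 0.503 CPM in clone 1 and 0.723 and 0.300 CPM in clone 2, against 0.757 and 0.434 CPM in control cells. These groups overlapped, and no contrast was called. Per kilobase its level was 0.200 CPM in DKO cells and 0.263 CPM in control cells, below the 2.42 CPM in DKO cells and 3.05 CPM in control cells of Trim43a. Trim43a and Trim43b are 98.2% identical over 1971 aligned bases, and 45.8% of the words of Trim43a and 47.7% of those of Trim43b occur in other genes. Summed, the pair had 2.48 and 2.51 CPM in clone 1, 8.71 and 7.35 CPM in clone 2 and 6.99 and 6.32 CPM in control cells, and clone 2 against clone 1 gave a log2 change of 1.68 (adjusted p = 0.000197, edgeR). Trim43c, another copy of the gene, averaged 0.305 CPM in clone 1, 0.732 CPM in clone 2 and 0.544 CPM in control cells, and its difference between clones was not called (adjusted p = 0.193, edgeR). The genes on either side of Trim43a, Zfp949 at 9805 bases and 9430037G07Rik at 6501 bases, did not pass between clones either (adjusted p = 0.382 and 0.391, edgeR).

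Ddit4l, also called REDD2, an inhibitor of mTORC1 signalling (Entrez 73284, chromosome 3, 137623672 to 137628332), had 20.7 and 18.9 CPM in clone 1, 12.5 and 10.01 CPM in clone 2 and 18.3 and 16.5 CPM in control cells. Clone 2 was lower than control by a log2 change of -0.63 (SE 0.132, adjusted p = 0.00553, edgeR) and lower than clone 1 by -0.81 (SE 0.132, adjusted p = 0.00337, edgeR). Clone 1 against control gave 0.18 and was not called (adjusted p = 0.373, edgeR). Genes of chromosome 3 were shifted as a block, by a median of 0.29 in clone 1 and 0.08 in clone 2. After subtraction of these chromosome medians, clone 2 against clone 1 gave -0.61 for Ddit4l (adjusted p = 0.0172, edgeR), clone 2 against control -0.71 and clone 1 against control -0.10. The call of clone 2 against control ended without control replicate 1 (adjusted p = 0.0552) and without clone 2 replicate 2 (0.0846). Its neighbour H2az1, a histone variant gene, was higher in clone 1 than in control by 0.28 (adjusted p = 0.019, edgeR) and was not called between clones (-0.22, adjusted p = 0.0963). Its paralogue Ddit4 (REDD1) had 11.4 CPM in clone 1, 6.27 CPM in clone 2 and 8.01 CPM in control cells, and its log2 change of clone 2 against clone 1 was -0.86 (adjusted p = 0.00381, edgeR).

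Gm20767 also differed between clones, by -0.99 on the log2 scale for clone 2 against clone 1 (SE 0.209, adjusted p = 0.0141, edgeR). This call ended without clone 1 replicate 2 (adjusted p = 0.0866), clone 2 replicate 1 (0.109) or clone 2 replicate 2 (0.0515). Tcstv1 (-0.80, adjusted p = 0.22), Tcstv3 (-1.07, adjusted p = 0.188) and Tmem92 (-0.69, adjusted p = 0.175) were not called between clones in edgeR. Zfp352, Sp110, Arg2 and Trim43b were not called either, with log2 differences of -0.32 to 0.36 and standard errors of 0.377 to 0.604.

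**Figure D4:**
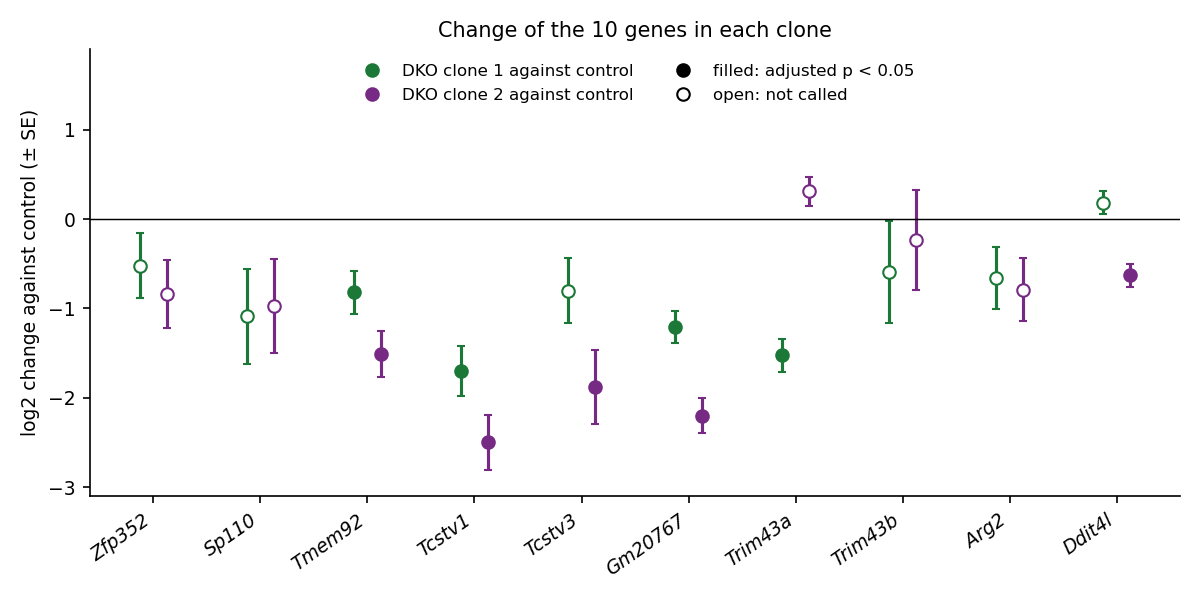
log2 change of clone 1 and of clone 2 against control for the 10 genes, with standard errors; filled points passed at adjusted p under 0.05 in edgeR. Tcstv1, Gm20767 and Tmem92 are filled below 0 in both clones, Trim43a only in clone 1 (-1.53) and Tcstv3 and Ddit4l only in clone 2 (-1.87 and -0.63).

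Per kilobase of the gene width in the table, the order of levels in DKO cells was Ddit4l (5.32 CPM per kb), Trim43a (2.42), Gm20767 (2.07), Tcstv1 (0.999), Tcstv3 (0.814), Tmem92 (0.779), Arg2 (0.708), Zfp352 (0.356), Trim43b (0.200) and Sp110 (0.0554). In control cells Gm20767 came first, at 6.38 CPM per kb, with Ddit4l (5.98), Tcstv1 (4.14) and Trim43a (3.05) next, and the last 6 genes kept the same order. In control cells the single libraries of Gm20767 and Ddit4l overlapped (6.06 and 6.71 against 6.29 and 5.66 CPM per kb), as did those of Tcstv3 and Tmem92. In DKO cells each gene overlapped with the next in the order from Ddit4l down to Arg2, as did Zfp352 and Trim43b, while Arg2 lay above Zfp352 and Trim43b above Sp110 in all DKO libraries. Neither clone alone had the DKO order. In clone 1 the mean of Trim43a (1.06 CPM per kb) lay below Gm20767 (2.76), Tcstv1 (1.27) and Tcstv3 (1.11). In clone 2 Arg2 (0.674) and Tmem92 (0.597) lay above Tcstv3 (0.522).

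Other transcripts of the 2-cell state were listed with results of these data known, and B020031M17Rik and AF067061 of the chromosome 13 stretch are among them. Of 33 listed, 28 were found and 26 were tested. The pooled comparison called 16 of the 26 lower, against 3.62% of all tested genes. All tested Zscan4 and Usp17l genes of the list are among the 16, and sequence overlap between these copies was not examined. The median log2 change over the 26 was -1.28, and none rose in edgeR (0 at unadjusted p under 0.05, 0 in DESeq2 and 0 in limma-voom). Their summed level was 82.3 to 107 CPM in DKO libraries, against 220 and 218 CPM in control libraries. Usp17lb, of a family of deubiquitinating enzymes, averaged 1.29 CPM in clone 1 and 1.05 CPM in clone 2, against 5.85 CPM in control cells (log2 change -2.32, adjusted p = 0.000769, edgeR). Usp17la had a change of -1.97 (adjusted p = 0.00102). Zscan4a, of the zinc finger family that marks the state, averaged 10.1 CPM in clone 1 and 7.65 CPM in clone 2, against 23.8 CPM in control cells (-1.42, adjusted p = 0.000775), and Zscan4f changed by -1.50 (adjusted p = 0.00102). The 5 listed Tdpoz genes, of a family with BTB/POZ domains, were not called in the pooled comparison. Tdpoz3 was called lower in clone 2, at 0.133 CPM, against 0.641 CPM in control cells (log2 change -2.21, adjusted p = 0.0466, edgeR), and was not called in clone 1, at 0.359 CPM (adjusted p = 0.368). Tdpoz5 was at 6.52 CPM in clone 1 and 5.47 CPM in clone 2, against 6.20 CPM in control cells. Without control replicate 1 the count that fell was 11 and without control replicate 2 it was 12.

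Among 5 tested activators of the state Dppa4, a chromatin protein that acts upstream of Dux, fell in the pooled comparison (log2 change -0.26, adjusted p = 0.0427, edgeR). Its level was 161 CPM in clone 1 and 148 CPM in clone 2, against 185 CPM in control cells. By clone it was called in clone 2 (adjusted p = 0.00526) and not in clone 1 (0.0603, edgeR). Dppa2 was called lower in clone 1 (-0.33, adjusted p = 0.0403), but not in clone 2 (0.234) or in the pooled comparison (0.153, edgeR). The nuclear receptor gene Nr5a2 rose to 274 CPM in clone 1 and 217 CPM in clone 2, against 183 CPM in control cells (log2 change 0.42, adjusted p = 0.0391, edgeR). It also differed between clones (clone 2 against clone 1, -0.34, adjusted p = 0.00782, edgeR). In the pooled comparison neither Dppa4 nor Nr5a2 passed without control replicate 1, without control replicate 2 or with the replicate number as a block. No activator was called lower there with chromosomes centred (2 at unadjusted p under 0.05). Dux (Duxf3) was not analysed here. Of 29 repressors of the state, such as Kdm1a, Trim28 and Chaf1a, none was called in the pooled comparison in edgeR (7 lower and 4 higher at unadjusted p under 0.05), while DESeq2 called 3 lower and limma-voom 1 lower. By clone, edgeR called 1 of the 29 lower and 1 higher in clone 1, and 2 lower and 3 higher in clone 2, each against control. Of all tested genes 6.47% were lower and 8.79% higher in clone 1, and 7.08% lower and 7.89% higher in clone 2.

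Markers of other cell types had summed levels below that of the 12 ES cell markers. The 11 fibroblast and feeder markers summed to 8.59 to 10.6 CPM in DKO libraries, against 10.8 and 13.7 CPM in control libraries. S100a4 had 0 reads in all DKO libraries, and 0 and 1 in control libraries. Postn had 0 to 4 reads in DKO libraries and 0 in both control libraries. Both genes were too low to be tested. Of the 5 tested, Acta2, smooth muscle actin, fell to 2.24 CPM in clone 1 and 0.948 CPM in clone 2, against 6.02 CPM in control cells (adjusted p = 0.00629, edgeR), and Fbln2 rose (adjusted p = 0.0323). No fibroblast marker was called lower in edgeR without control replicate 1 or control replicate 2 (1 at unadjusted p under 0.05 in each). Fbln2 also lies on chromosome 6, and no fibroblast marker was called higher with chromosomes centred (0 at unadjusted p under 0.05) or without control replicate 1, clone 1 replicate 1 or clone 1 replicate 2 (1 at unadjusted p under 0.05 in each). The 9 trophectoderm markers summed to 78.6 to 82.7 CPM in DKO libraries, against 60.7 and 71.6 CPM in control libraries. Of the 7 tested, Gata3 rose (adjusted p = 0.029) and Krt8 fell (adjusted p = 0.0327) in the pooled comparison. Against control in clone 1, edgeR called Eomes, Gata3 and Tfap2c higher, 3 of the 7. In clone 2 the 3 called higher were Eomes, Gata3 and Tead4. In either clone, 2 of the 7 were called lower. Of all tested genes 8.79% were higher and 6.47% lower in clone 1, and 7.89% higher and 7.08% lower in clone 2. Tead4 lies on chromosome 6, whose median shift was 0.51 in clone 2. With chromosomes centred the median pooled log2 change of the 7 was 0.19, against 0.41 without centring. Eomes, which did not pass in the pooled comparison (adjusted p = 0.0505, edgeR), was among those higher in each clone. The 9 primitive endoderm markers summed to 47.3 to 56.0 CPM in DKO libraries, against 59.3 and 59.1 CPM in control libraries, and Col4a1 fell among the 8 tested (adjusted p = 0.0138). In the pooled comparison without control replicate 1 or control replicate 2, edgeR called no trophectoderm or primitive endoderm marker in either direction. At unadjusted p under 0.05 these fits had 1 to 3 trophectoderm markers higher, 1 or 2 lower, and 1 or 2 primitive endoderm markers lower. The part of these markers in the results for the 10 genes was not tested.

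The 10 genes did not all vary together across the 6 libraries. The correlation of log2 CPM with the mean of the other 9 was 0.95 for Tmem92, 0.94 for Tcstv1 and 0.92 for Gm20767, but -0.02 for Trim43a, 0.37 for Trim43b and 0.45 for Ddit4l. Outside the lists, the genes whose log2 CPM followed the mean of the 10 most closely were Myo1c (r = 0.9989), Dock4, Col5a2, Il6st, Zmym5 and Eif4b (r = 0.9927), of 12572 genes at 1 CPM or more. Over 6 libraries from 3 clones, 172 of these genes had r above 0.95 and 310 had r below -0.95. Col5a2, a collagen chain, averaged 1.47 CPM in clone 1 and 1.17 CPM in clone 2, against 3.65 CPM in control cells.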

How the data were processed

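The authors deposited raw read counts per Entrez gene for 6 RNA libraries, made with the ScriptSeq v2 kit per the labels' protocols. Reads were aligned with STAR 2.5.0a to mm10 (GRCm38), per the submitters' processing notes. Not given in the sources used here are the counting tool, the strand counted and the treatment of multi-mapping reads. The deposited width beside each count was taken as gene length. Of 24467 IDs, 24437 matched a RefSeq table of GRCm38.p6, which gave the coordinates and promoter windows; the 30 others took 0.389 to 1.62% of the reads.

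Tests on these counts used edgeR 4.0.16 under R 4.3.3, with filterByExpr on the 3 groups, TMM scaling and quasi-likelihood F tests, two-sided, called at an adjusted p (Benjamini and Hochberg over 14771 genes) of 0.05. DKO against control was fitted with genotype alone (4 residual degrees of freedom), and each clone contrast in a fit with 3 groups (3 residual degrees of freedom). These fits were tested on simulated data. CPM is TMM-scaled, correlations used log2 CPM with a prior of 2 counts, and SE comes from the F statistic.

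The genes and lists were chosen with earlier results of these data known. Named besides the 10 genes are up to 4 called genes of a list with the smallest adjusted p. The 6 most alike genes are named too, and some of the nearest tested neighbours. Genes named after their values were seen are Gm20765, Gm21293, Esp24, Gm12724, Sgk1, Ddit4, Trim43c, Tdpoz1, Tdpoz3, Tdpoz5, Eif4a3l1, Pramel17 and Eomes. Named likewise are Tdpoz8, Tdpoz9, Dppa2, Tfap2c, Tead4, S100a4 and Postn. So are the genes of the chromosome 13 stretch. Alternatives were RLE and library size scaling, other filters, DESeq2 1.42.0, limma-voom (limma 3.58.1), a replicate block, counts summed per clone, genotype taken from the fit with 3 groups, centred chromosomes, near-identical copies summed and each library left out.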

Additional observations from a re-analysis of the deposited data

Results flagged for a closer look

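Among the 10 genes, 3 differed between the clones in the edgeR test of that difference (clone 2 against clone 1, log2). The value was 1.84 for Trim43a, which was higher in both libraries of clone 2 (7.99 and 7.05 CPM) than in both of clone 1 (2.19 and 2.01 CPM). It was -0.81 for Ddit4l and -0.99 for Gm20767, which were lower in both libraries of clone 2 than in both of clone 1.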

How the results depend on the processing

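Over 17 alternatives no log2 change of the 10 genes turned direction with a call. In DKO against control the main count was 3 genes lower of 10. With counts summed per clone it was 0 (2 called among all genes, against 1283), and with genotype taken from the fit with 3 groups it was 5, with Tcstv3 and Trim43a added (2628 among all genes). With chromosomes centred 790 of all genes were called. Leaving out 1 library gave 0 to 4 of the 10 genes lower and 246 to 1186 calls among all genes, the lowest without control replicate 1 and the next, 313, without control replicate 2. In clone 1 against control, leaving out 1 library gave 3 or 4 genes lower, in clone 2 against control 3 to 5, and in clone 2 against clone 1, 1 or 2 lower and 1 higher. With the replicate number as a block 2 of the 10 genes were lower and 928 of all genes were called; the labels do not say that a number marks a pair, and the deviations of same-numbered libraries correlated at 0.03 between clone 1 and control, -0.08 between clone 2 and control and 0.03 between the clones. Apart from the smaller number of samples in the summed and leave-one-out settings, the cause of these moves was not tested. Depth limits Sp110, at 7 to 31 reads a library, and Trim43b, at 8 to 26 reads.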
